A study of Mus musculus with 22 samples.

Results

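The collagen genes are described here across 22 RNA libraries labelled as mouse hypothalamus. Members were taken by gene symbol, as every gene of the count table named Col, a number, the letter a and a number, with 1 such gene not reported here. This gave 43 of the 41456 gene IDs in the table. The set was proposed from the measured values of these libraries, because the collagens stood out in 4 of them and in the mutant ZT0 group. Levels in those 4 libraries against the other 17 are therefore given as a description, with no test.

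All mice were C57BL/6J. Control mice were PWScrm+/p+ and mutant mice were PWScrm+/p−, a line that lacks the Snord116 small nucleolar RNA genes on the chromosome inherited from the father. Each genotype was sampled at lights on (ZT0, 3 libraries), 6 hours later (ZT6, 4 libraries) and at ZT6 after 6 hours of sleep deprivation (SD, 4 libraries). The series asks how loss of Snord116 and sleep deprivation alter the hypothalamic transcriptome. The labels give mice per condition but no animal identity for a library, so p-values measure the spread between libraries. The shallowest of 21 libraries held 3120328 counts and the deepest 46965594, and mutant ZT6 2 was left out of comparisons because its depth was far below these. The 17 Snord116 copies in the table summed to 0 counts in all 11 mutant libraries and to 0 to 1561 counts, with a median of 14, in the 11 control libraries. That sum was also 0 in 3 control libraries, so in this poly(A) assay a 0 does not mark a mutant.

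Collagens are secreted or membrane-bound proteins of 3 chains wound into a helix, in which glycine recurs at every turn of the chain (Gly-X-Y). Fibrillar collagens form the ropes of connective tissue, network collagens form basement membranes under endothelium and around vessels, and FACIT collagens (fibril-associated collagens with interrupted triple helices) coat fibrils. In the brain most collagen belongs to the meninges and to vessel walls, and a few collagens, such as the membrane-spanning Col25a1, are made by neurons.

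The length of the repeat differs between chains, and the fibrillar chains carry the longest. The 6 coding stretches that follow carry the largest differences between libraries or show how a repeat is built, and were read from GENCODE M21 transcripts (GRCm38). Capitals mark glycine codons in the repeat frame, and codons are counted from the start codon.

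Col1a1, codons 168 to 191, the start of its long repeat: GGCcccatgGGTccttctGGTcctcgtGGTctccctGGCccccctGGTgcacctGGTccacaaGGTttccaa
Col3a1, codons 164 to 187, the start of its long repeat: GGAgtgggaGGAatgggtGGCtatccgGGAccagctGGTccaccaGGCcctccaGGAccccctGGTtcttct
Col4a1, codons 212 to 237, with a break of 2 codons in the repeat: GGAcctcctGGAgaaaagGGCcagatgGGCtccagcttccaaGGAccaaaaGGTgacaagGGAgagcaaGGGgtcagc
Col12a1, codons 2805 to 2828, near the end of a long chain: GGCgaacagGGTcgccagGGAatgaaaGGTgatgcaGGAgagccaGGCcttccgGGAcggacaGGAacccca
Col25a1, codons 189 to 212, a transmembrane chain: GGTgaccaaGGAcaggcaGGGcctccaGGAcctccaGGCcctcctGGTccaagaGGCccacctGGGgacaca
Col9a2, codons 180 to 203, a FACIT chain: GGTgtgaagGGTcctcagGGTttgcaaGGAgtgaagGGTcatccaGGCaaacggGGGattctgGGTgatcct

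The longest unbroken run of glycine triplets was 338 triplets in Col1a1 and 344 in Col3a1. It was 40 triplets in Col4a1, whose repeat falls into 22 runs of at least 5 triplets, and 40 in Col25a1, with 6 runs. In Col9a2 it was 113 triplets. In Col12a1 it was 32 triplets, and 8.1% of its 3065 codons lay in the repeat, the lowest share of the 43. Longest runs of FACIT chains, 32 to 113 triplets, overlapped those of basement membrane chains, 39 to 66, and transmembrane chains, 40 to 55. Of the 11 fibrillar chains, 9 had a longest run of 337 to 344 triplets, and Col24a1 and Col27a1 had 216 and 217.

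The 4 libraries that hold most collagen RNA were labelled mutant ZT0 1, 2 and 3 and mutant ZT6 3. They are called the collagen-rich libraries here. Their tissue label was not borne out by the markers: all 10 neuronal and all 10 hypothalamic marker genes lay below the 17 in each of the 4. The neuronal markers summed to 18.9 to 182.4 CPM there (CPM, counts per 1e+06 counts of a library, scaled by TMM factors, which adjust library totals for composition) and to 2857 to 4949 CPM in the 17. The hypothalamic peptides and transcription factors summed to 5.28 to 9.89 CPM against 885.2 to 2182 CPM. Markers of meninges and fibroblasts summed to 2319 to 9883 CPM against 133.4 to 426.1, with 8 of 13 genes above the 17 in all 4 libraries, 2 below, and the meningeal transporter Slc22a6 at 0 counts in the 4. Markers of pericytes and smooth muscle summed to 1453 to 9926 CPM against 116.0 to 211.6, with 6 of 10 above, while the pericyte genes Rgs5 and Vtn lay below. Endothelial markers summed to 200.2 to 569.7 CPM against 99.73 to 201.0, and 1 of 10, Ly6c1, was above in all 4 while 3 lay below. Cldn5, which seals vessels of the brain, was at 0 to 0.19 CPM. Of cartilage and bone markers 3 of 9 lay above and 2 below, and Bglap and Sp7 were at 0 counts. Over 16984 genes with a mean of at least 1 CPM, 19.8% lay above the 17 in all 4 and 26.2% below. The counts for endothelium and for cartilage and bone were near these shares. In bulk RNA, fewer cells of a type and less RNA per cell cannot be told apart. Because no mutant ZT0 library lies among the 17, genotype at ZT0 and this difference in tissue markers cannot be told apart.

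All collagens together reached 26200, 56930 and 43160 CPM in mutant ZT0 1, 2 and 3 and 45190 CPM in mutant ZT6 3. In the 17 they summed to 477.5 to 962.3 CPM, with a median of 714.6. Of the 43 members, 19 lay above the 17 in all 4 libraries, 8 lay below, and 16 overlapped. These counts used the contrast that chose the set. Over the 16984 genes with a mean of at least 1 CPM, 3355 lay above in all 4 (19.8%) and 4458 lay below (26.2%). The median log2 ratio of the 4 to the 17, with 0.5 CPM added to each median, was 1.27 over the collagens and -0.09 over those genes. Without TMM factors it was 0.81 and -0.50, a shift of -0.41 for all genes, and the share of genes higher in the 4 went from 47.5% to 35.8%. On that scale 18 members lay above (13.8% of genes) and 10 below (33% of genes): Col16a1 went from above to overlap, and Col4a4 and Col6a5 from overlap to below.

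**Figure D1:**
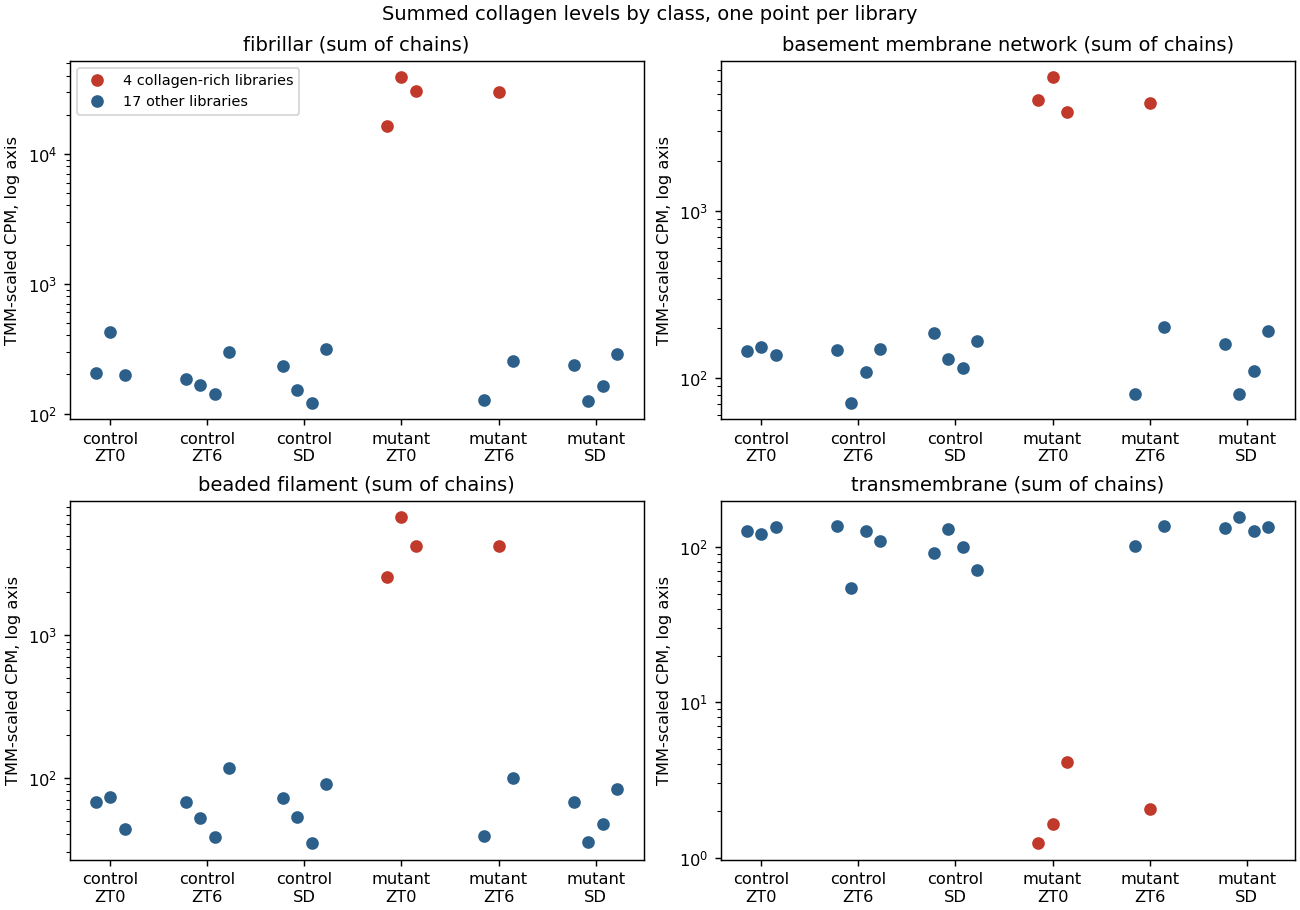
Summed TMM-scaled CPM (log axis) of 4 collagen classes by group, with 1 point per library. The 4 collagen-rich libraries (red) sit at 16300 to 38710 CPM for fibrillar chains, where the 17 others (blue) sit at 120.3 to 421.1, and at 1.24 to 4.15 CPM for transmembrane chains, where the others sit at 54.28 to 155.0.

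Fibrillar collagens made up 62.2% to 70.1% of collagen CPM in the 4 libraries and 23.9% to 43.8% in the 17. Col1a1, the main chain of type I collagen of skin, bone and meninges (chromosome 11, 94936224 to 94953042, GRCm38), stood at 5562, 6499 and 7908 CPM in mutant ZT0 1, 2 and 3 and 7729 CPM in mutant ZT6 3, against 2.64 to 97.35 in the 17 with a median of 10.39. Its ratio of medians was 684. Its partner chain Col1a2 (chromosome 6, 4504814 to 4541544) had 4661, 8697, 5437 and 5948 CPM in the same order, against 11.39 to 113.0. Col3a1, the type III chain of distensible tissues (chromosome 1, 45311538 to 45349706), had the largest ratio of the set, 1095, with 1062, 14410, 8157 and 6332 CPM against 1.96 to 46.75. The 4 libraries were thus alike in Col1a1 and unlike in Col3a1, which was lowest in mutant ZT0 1.

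The type V chains, which set the width of type I fibrils, followed. Col5a1 had 2061, 2816, 4484 and 4655 CPM against 2.74 to 15.93, a ratio of 622, and Col5a2 had a ratio of 198 and Col5a3 of 10.9. Col11a1, a chain of the cartilage fibril that also occurs in other tissues, had 685.7, 896.2, 812.1 and 1196 CPM against 32.04 to 84.66. Its cartilage partners did not share that position. Col11a2 lay below the 17, at 4.57, 6.24, 13.96 and 12.72 CPM against 17.05 to 50.91 with a median of 26.90. Col2a1, the main collagen of cartilage, had 150.4 CPM in mutant ZT0 1 and 0.59, 0 and 0.84 CPM in the others, against 3.79 to 12.56 in the 17, so mutant ZT0 1 stood above and the other 3 below. The chains with shorter helices overlapped: Col24a1 had 2.85, 40.24, 21.51 and 32.91 CPM against 3.74 to 13.90, and Col27a1 had 10.65, 32.95, 44.53 and 28.72 against 8.97 to 28.01. Of the 9 fibrillar chains with a run of at least 300 triplets 7 lay above the 17, beside 19.8% of all genes, and neither of the 2 shorter ones did. In both shorter ones, mutant ZT0 2, mutant ZT0 3 and mutant ZT6 3 stood above the 17 and mutant ZT0 1 did not. Whether repeat length goes with level was not tested.

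Among the basement membrane chains, the pair that every basement membrane carries stood highest. Col4a1 had 2295, 3672, 1853 and 2086 CPM against 0.33 to 45.06, and Col4a2 had 2150, 2409, 1971 and 2130 CPM against 55.86 to 171.1. Col4a5 lay above as well, at 179.9, 220.0, 108.7 and 189.3 CPM against 3.87 to 16.59. Col4a3, Col4a4 and Col4a6 did not. Col4a3 had 0.67, 1.78, 0.38 and 0.53 CPM against 1.26 to 5.68, and Col4a4 had 0.76, 1.82, 0.38 and 1.37 against 1.43 to 5.63. Col4a6 had 2.00, 6.29, 0.38 and 1.98 CPM against 0.84 to 2.64. Type IV genes lie in head-to-head pairs: Col4a1 and Col4a2 on chromosome 8 overlap by 22 bases at their starts, Col4a4 and Col4a3 on chromosome 1 are 71 bases apart, and Col4a6 and Col4a5 on the X chromosome 1308. In the first pair both genes lay above the 17, in the second both overlapped them, and in the third only Col4a5 lay above.

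Type VI collagen, a beaded filament that links cells to fibrils, divided along its chains. Col6a1 had 1259, 3399, 1871 and 1737 CPM against 8.91 to 42.51. Col6a2 and Col6a3 lay above too, with ratios of 80.2 and 95.7. The late-found chains Col6a4, Col6a5 and Col6a6, neighbours on chromosome 9, were low in the 4. Col6a4 had 0.19, 1.19, 1.51 and 0.99 CPM against 1.23 to 4.98. Col6a5 had 0, 5.24, 1.89 and 1.52 CPM against 4.92 to 19.47, so mutant ZT0 2 reached into the range of the 17. Col6a6 lay below in all 4, at 0.19, 0.91, 0 and 0.53 CPM against 1.87 to 6.46.

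Of the 9 FACIT collagens, 2 lay above the 17, 3 below and 4 overlapped, near the shares of all genes (19.8% above and 26.2% below). Col12a1, which coats type I fibrils in tendon and other loaded tissue (chromosome 9, 79598991 to 79718831), had 1975, 4010, 3993 and 5849 CPM against 6.13 to 22.19, a ratio of 298. Col16a1 had 129.1, 188.3, 255.5 and 235.6 CPM against 34.15 to 94.11, though without TMM factors it overlapped. The type IX chains, which coat cartilage fibrils, were the reverse. Col9a2 (chromosome 4, 121039385 to 121055322) had 0.57, 1.23, 0.38 and 0.23 CPM, from 6, 27, 1 and 3 counts, against 12.03 to 40.88 with a median of 21.43. Col9a3 had 1.33, 1.32, 2.64 and 1.60 CPM against 11.92 to 28.60. Col9a1 overlapped, at 0.48, 0.32, 0 and 0.08 CPM against 0.11 to 1.53.

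Col19a1, a FACIT collagen of muscle and of some neurons, lay below at 1.33, 0.50, 0.38 and 1.22 CPM against 2.22 to 11.81. Col14a1, which binds fibrils in skin and tendon, had 0.95, 26.16, 4.91 and 2.36 CPM against 0.51 to 2.85, so mutant ZT0 2 and 3 stood above. Col20a1 had 2.57, 3.19, 2.26 and 3.504 CPM, inside the range of 0.88 to 4.32. Col22a1, found at tissue junctions, had 1.24, 2.42, 0 and 0.30 CPM against 0.21 to 6.29.

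Col25a1, the transmembrane collagen of neurons (chromosome 3, 130131501 to 130599877), showed the largest difference in the other direction. It had 0.48, 1.37, 1.13 and 1.30 CPM in the 4, from 5, 30, 3 and 17 counts, against 53.05 to 154.2 in the 17 with a median of 120.1, which is 99.0-fold lower by medians. Col13a1, a transmembrane collagen of muscle and nerve junctions, had 0, 0, 0.38 and 0.38 CPM, from 6 counts in all, against 0.43 to 25.95. In the 21 deep libraries a count of 0 allows up to 3 counts, or 0.0608 to 1.13 CPM, so differences this low rest on few counts and the limits cover counting error only. Col17a1, of skin hemidesmosomes, had 0.76, 0.27, 2.64 and 0.38 CPM against 0 to 1.10. The class as a whole was 68.6-fold lower by medians, 1.85 against 126.8 CPM.

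The remaining classes were small. Of the short chain network, Col8a1 of vessel walls had 308.1, 96.29, 73.97 and 106.7 CPM against 4.08 to 9.71, Col8a2 had 37.56, 12.71, 10.19 and 10.59 against 4.29 to 11.78, and Col10a1 of growth cartilage had 4.85, 23.61, 0.75 and 2.36 against 0 to 0.88. Col7a1, the anchoring fibril under the epidermis, had 166.9, 51.63, 140.8 and 162.9 CPM against 3.79 to 24.13. The multiplexin Col18a1, a proteoglycan of basement membranes, had 58.10, 686.7, 100.8 and 98.12 CPM against 10.21 to 22.62, and Col15a1 overlapped at 1.90, 11.48, 18.87 and 18.44 against 6.12 to 16.80. Col28a1 had 12.55, 83.35, 143.8 and 157.1 CPM against 0 to 1.54, a ratio of 176. Col26a1 was the reverse, at 0.19, 0.64, 0 and 0.84 CPM against 3.73 to 9.04.

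**Figure D2:**
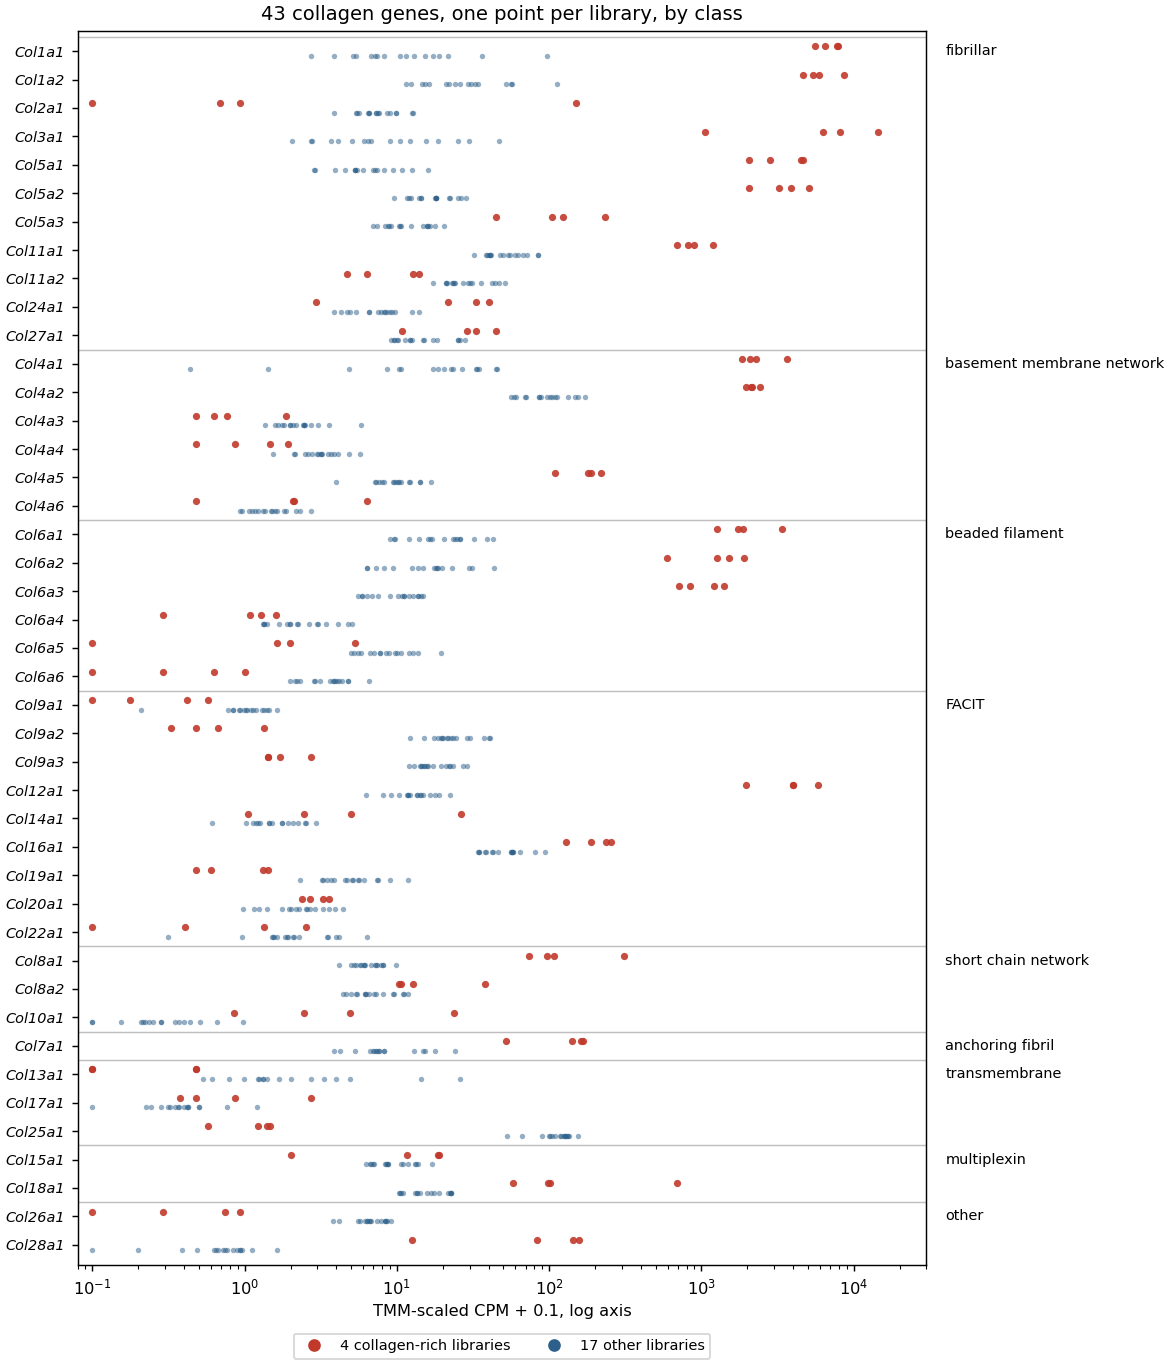
TMM-scaled CPM plus 0.1 (log axis) of the 43 collagen genes, grouped by class, with 1 point per library. Red points of the 4 collagen-rich libraries lie right of all blue points for 19 genes, led by Col3a1, and left of them for 8, of which Col25a1 is farthest.

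The 4 libraries were not alike among themselves. Mutant ZT0 2 held the highest value of 22 members and mutant ZT0 1 the lowest of 23. Col3a1 was 14410 CPM in the former and 1062 in the latter, while Col2a1 and Col8a1 were highest in mutant ZT0 1. In the fibroblast markers, Lum ran from 2.00 to 1481 CPM and Dcn from 36.80 to 1441 CPM over the 4 libraries. Acta2, the actin of smooth muscle and of activated fibroblasts, ran from 654.1 to 6460 CPM. Summed markers of meninges and fibroblasts were 2319 CPM in mutant ZT0 1 and 9883 in mutant ZT0 2, and those of pericytes and smooth muscle 9926 and 1453. The part of these cell types in the differences was not tested.

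Genes that make, cut, cross-link and bind collagen were counted in the same way, beside 19.8% of all genes above the 17 and 26.2% below. Of 20 genes for chain modification and folding, 17 lay above in all 4, including Serpinh1, the collagen chaperone, at 806.1 to 1341 CPM against 2.23 to 46.51, and the prolyl hydroxylase subunit P4ha2. Colgalt2, which adds galactose to collagen, lay below, at a median of 0.37 against 5.84 CPM. Of 13 genes for propeptide cleavage and cross-linking, 9 lay above. Lox, the lysyl oxidase that starts cross-links, had 4085 to 10770 CPM against 0.34 to 16.06, while Tll2, a protease of the same family as Bmp1, was at 0 counts in the 4 against 1.18 to 4.20 CPM. Collagenases and inhibitors had 5 of 9 above, with Timp1 at a median of 548.6 against 1.13 CPM and Mmp2 at 573.3 against 4.002. Collagen receptors had 6 of 10 above, among them Ddr2 at 481.9 against 10.15 CPM, while Lair1 of immune cells lay below. Of 12 basement membrane partners 9 lay above, such as the proteoglycan Hspg2 at 1278 against 8.58 CPM, and the laminin chain Lama1 lay below at 1.59 against 7.23. Of 10 TGF-beta ligands and targets, 7 lay above, with Postn at 5239 against 4.82 CPM. These lists, like the collagens, are read from the contrast that chose the set and carry no test.

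Among the 17 libraries the order of collagens was another one. Levels were divided by the length of all annotated exons of a gene merged, which can be longer than its main transcript. On this scale Col4a2 had the highest median level at 14.7 CPM per kb. Col25a1 at 9.28, Col16a1 at 8.30 and Col9a2 at 6.92 followed. In the collagen-rich libraries the order was Col1a1 at 1084, Col3a1 at 738, Col1a2 at 458 and Col5a1 at 430 CPM per kb. The balance of chains that assemble together was compared as a ratio per kb. Merged exons came to 6.563 kb for Col1a1 and 12.426 kb for Col1a2, whose coding sequences hold 1453 and 1372 codons. They came to 4.38 kb for Col6a1 and 8.326 kb for Col6a2, with 1025 and 1034 codons. The order of genes and these ratios therefore depend on the annotated length. The ratio of Col1a1 to Col1a2, which form 1 helix of type I collagen, was 1.42 to 2.75 in the 4 and 0.328 to 1.63 in the 17, which overlap. Col9a2 to Col9a3 was 0.178 to 1.16 against 1.26 to 2.15, the former from 1 to 29 counts a gene. Col6a1 to Col6a2 overlapped, at 2.34 to 4.03 against 1.78 to 3.46, and so did Col4a3 to Col4a4, at 0.414 to 1.07 against 0.532 to 1.84.

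Col4a1 and Col4a2 were near balance in the 4 libraries, at a ratio of 0.834 to 1.35 per kb, and far from it in the 17, at 0.00223 to 0.468 with a median of 0.1698. Col4a1 counts were 5 in control ZT6 4, 27 in control ZT6 2 and 88 in mutant SD 4, where Col4a2 had 1988, 1226 and 3177 counts. In the other 14 libraries Col4a1 had 243 to 1722 counts. Of the 3 low libraries 2 are from control ZT6, where the mean of Col4a1 was 9.77 ± 10.41 CPM (SD, n = 4), against 26.17 ± 7.28 (n = 3) at ZT0 and 31.2 ± 10.47 (n = 4) after SD. Whether the low counts come from the RNA or from how transcripts were assigned and summed to the gene was not tested, and this limit holds for every Col4a1 level and chain ratio among the 17. In control ZT6 4, control ZT6 2 and mutant SD 4, the 12 basement membrane partners summed to 282.7, 282.4 and 341.2 CPM. Their median over the 17 was 290.2. Among these genes the proteoglycan Hspg2, chosen after its values were seen, had 11.18, 12.83 and 12.44 CPM against a median of 8.58 over the 17.

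**Figure D3:**
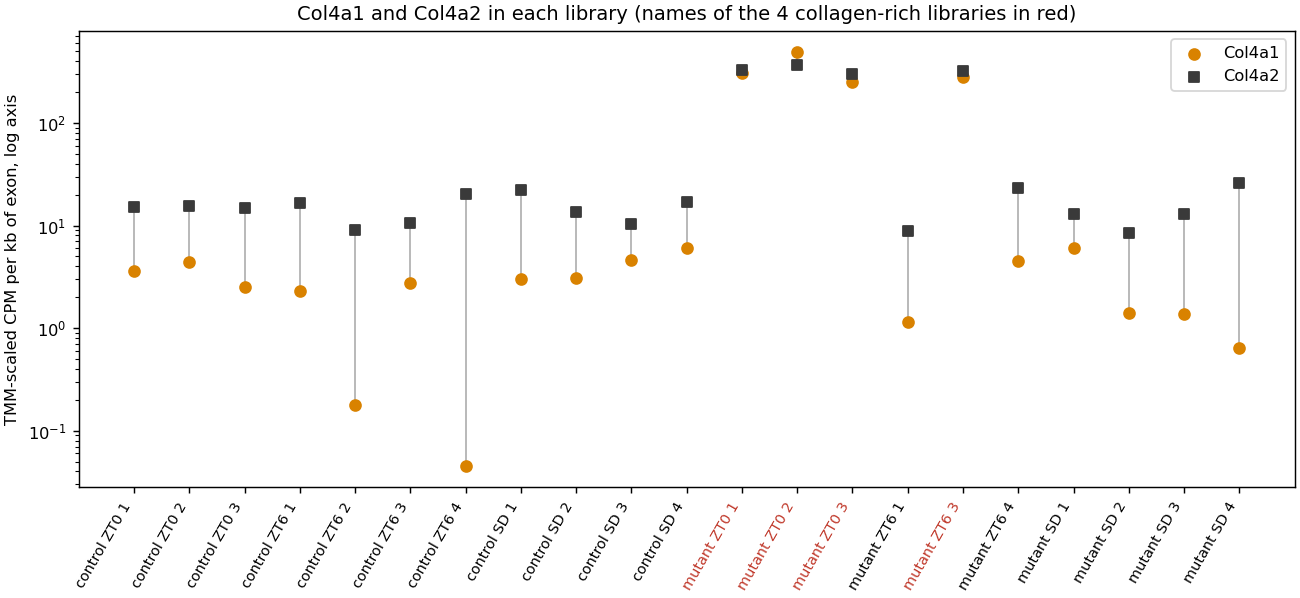
Col4a1 (circles) and Col4a2 (squares) in each of 21 libraries, in TMM-scaled CPM per kb of exon on a log axis, with a line joining the 2 chains of a library. The chains lie together in the 4 collagen-rich libraries (red names) and apart in the 17 others, most of all in control ZT6 4, where the ratio was 0.00223.

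Among the 17, the highest library exceeded the lowest 36.9-fold for Col1a1, 23.9-fold for Col3a1 and 9.92-fold for Col1a2, against 2.91-fold for Col25a1. For Col1a1 the control libraries had 18.81, 97.35 and 5.30 CPM at ZT0, 11.40, 12.83, 3.73 and 21.69 CPM at ZT6, and 7.33, 8.12, 2.64 and 36.03 CPM after SD, each in the order of their numbers. It had 5.03 and 15.24 CPM in mutant ZT6 1 and 4 and 17.19, 6.67, 7.13 and 10.39 in mutant SD 1 to 4. Control ZT0 2 and control SD 4 were highest for Col1a1, for Col1a2 (113.0 and 56.64 CPM) and for Col3a1 (46.75 and 29.56 CPM), and all groups overlapped. In control SD 4 the meningeal and fibroblast markers summed to 387.4 CPM, the second highest of the 17 after 426.1 in control ZT6 4. In control ZT0 2 they summed to 286.5, below control ZT6 2 (337.3) and mutant SD 1 (313.7) as well. The part of those cells in the levels was not tested.

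Summed levels of the large classes overlapped between all 5 groups of the 17 libraries. All collagens summed to 786.5 ± 153.1 CPM (SD, n = 3) in control mice at ZT0, 670.8 ± 182.8 (n = 4) at ZT6 and 701.2 ± 166.3 (n = 4) after SD. Mutant mice had 692.6 ± 304.2 CPM (n = 2) at ZT6 and 707.9 ± 193.3 (n = 4) after SD. Fibrillar chains had group means of 191.7 to 275.0 CPM, basement membrane chains 119.4 to 150.6 and transmembrane chains 98.19 to 137.3. In each of these sums the group means lay closer together than the lowest and highest library of the most variable group. The highest transmembrane sum, 155.0 CPM, was in a mutant SD library.

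The most abundant basement membrane chain, Col4a2, had means of 100.6 ± 3.25 CPM (n = 3) in control mice at ZT0, 93.19 ± 34.19 (n = 4) at ZT6 and 104.4 ± 33.95 (n = 4) after SD. In mutant mice it was 106.2 ± 67.09 (n = 2) and 99.37 ± 49.79 (n = 4). Col9a2, the FACIT chain that was scarce in the collagen-rich libraries, had means of 20.61 ± 3.54 CPM (n = 3), 23.56 ± 10.51 (n = 4) and 27.94 ± 9.40 (n = 4) in control and 29.79 ± 14.65 (n = 2) and 21.30 ± 6.45 (n = 4) in mutant. For both genes the libraries of each group spread over more than the distance between group means at ZT6 and after SD.

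Col13a1 stood apart in a pair of libraries, with 25.95 CPM in control ZT6 1 and 14.23 in mutant SD 1 against at most 4.82 in the other 15. Pituitary markers such as growth hormone summed to 662.8 and 20640 CPM there, and to 1086 CPM in mutant SD 4, which had 3.23 CPM of Col13a1. They summed to 0.36 to 31.83 CPM in the other 14. The part of pituitary tissue in these levels was not tested. Col25a1 was steadier. The control libraries had 125.1, 120.1 and 132.2 CPM at ZT0, 109.7, 53.05, 126.1 and 104.0 CPM at ZT6, and 89.84, 128.2, 98.99 and 66.63 CPM after SD. In the mutant it had 101.4 and 134.4 CPM at ZT6 and 117.6, 154.2, 125.5 and 131.1 after SD, and all groups overlapped.

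**Figure D4:**
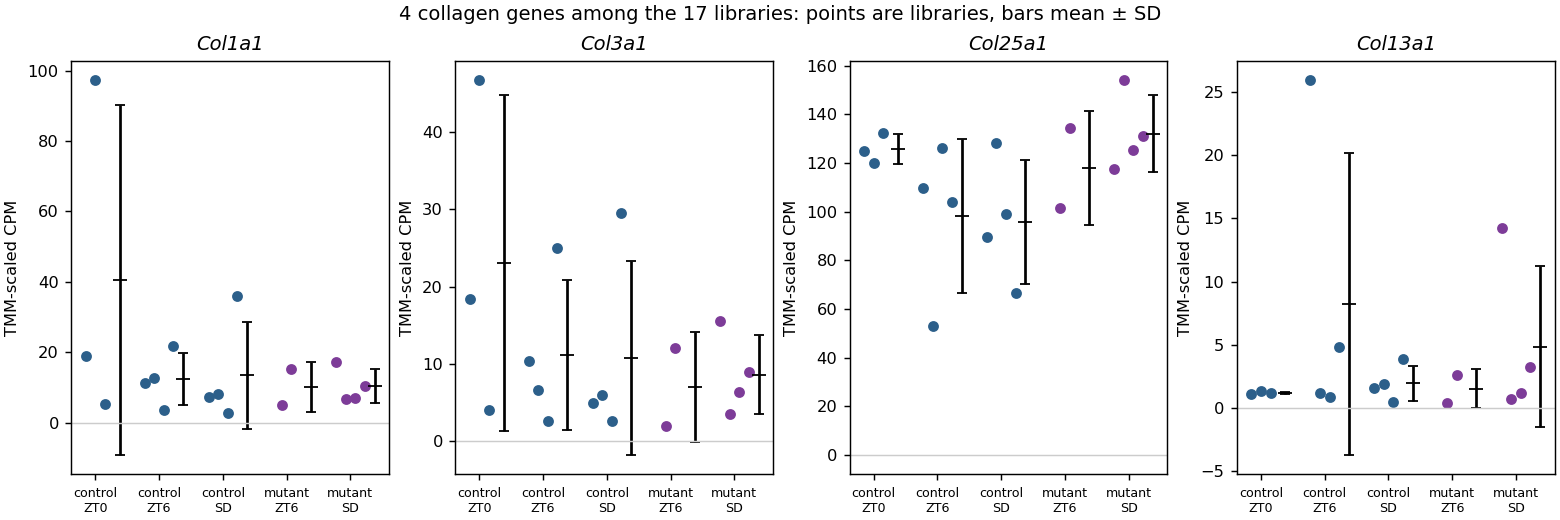
TMM-scaled CPM of Col1a1, Col3a1, Col25a1 and Col13a1 in the 17 libraries by group (blue control, purple mutant); points are libraries and bars show mean ± SD of 2 to 4 libraries. Single libraries set the spread of Col1a1 (control ZT0 2, 97.35 CPM) and Col13a1 (control ZT6 1, 25.95 CPM), and the groups overlap in all 4 genes.

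No collagen passed the test in any comparison of state or genotype among the 17 libraries. The 7 comparisons were sleep deprivation against ZT6 in each genotype, ZT6 and SD against ZT0 in control, mutant against control at ZT6 and after SD, and the interaction of genotype with SD. The edgeR quasi-likelihood fit over 21346 genes, with Benjamini-Hochberg adjustment at 0.05, called 0 collagens and 0 genes in each (0% called), while DESeq2 called 1 to 32 genes and no collagen. At an unadjusted p under 0.05, edgeR had 1318 genes (6.17%) and 1 collagen for SD in control, 461 (2.16%) and 1 for SD in mutant, 694 (3.25%) and 1 for ZT6 against ZT0, and 1561 (7.31%) and 1 for SD against ZT0. It had 566 (2.65%) and 2 for genotype at ZT6, 631 (2.96%) and 0 for genotype after SD, and 530 (2.48%) and 2 for the interaction. Where both comparisons use the control ZT6 or control SD libraries, their values are not independent.

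After SD against ZT6 in control, 32 of 43 collagens had a negative log2 fold change, with a median of -0.16 against -0.02 over all genes tested. In the mutant, 27 of 43 were positive, with a median of 0.06 against -0.01. The smallest p in control was that of Col8a1, the vessel wall chain, at -0.57 ± 0.21 (log2 ± SE, edgeR adjusted p = 0.707). Its levels were 5.98, 7.15, 7.97 and 9.71 CPM at ZT6 and 5.31, 6.005, 4.08 and 6.03 after SD, so the groups overlapped through 1 library at ZT6 and 2 after SD. Col14a1 at -0.87 ± 0.41 (edgeR adjusted p = 0.809) and Col13a1 at -2.08 ± 1.06 (edgeR adjusted p = 0.839) came next. Without control ZT6 1, which had 25.95 CPM, Col13a1 was -0.28. In mutant mice the smallest p was that of Col20a1, a little-studied FACIT chain, at 1.37 ± 0.51 (edgeR adjusted p = 1), with 1.30 and 0.88 CPM at ZT6 and 4.32, 1.91, 2.60 and 2.48 after SD. The groups did not overlap, with 2 libraries at ZT6, in a gene named for its small p. The share of all genes without overlap was not counted. Col9a1 at -1.001 ± 0.55 and Col4a5 at 0.59 ± 0.41 followed.

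For ZT6 against ZT0 in control, 22 collagens were positive and 21 negative, with a median of 0.03 against 0.09 over all genes. Col13a1 had the smallest p, at 2.81 ± 1.23 (edgeR adjusted p = 0.96), from 1.12, 1.31 and 1.15 CPM at ZT0 and 25.95, 1.23, 0.89 and 4.82 at ZT6, so 1 library carried the mean, and without it the value was 1.003. Col1a1 was -1.69 ± 0.90 and Col20a1 0.77 ± 0.43, the latter 1.39 without control ZT0 1. For SD against ZT0 in control, 26 of 43 were negative, with a median of -0.14 against 0.01. Col8a1 again had the smallest p at -0.51 ± 0.23 (edgeR adjusted p = 0.644), with 8.03, 7.07 and 7.77 CPM at ZT0, all above the SD libraries. How many of all genes lay so was not counted. Col6a4 was -0.79 ± 0.43 and Col1a1 -1.60 ± 0.89. Without control ZT0 2, Col1a1 was 0.072 for ZT6 and 0.143 for SD against ZT0, so its direction rested on that library.

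Between genotypes at ZT6, 28 of 43 were negative in the mutant, with a median of -0.11 against -0.06 over all genes, from 2 mutant libraries. Col20a1 was -1.41 ± 0.52 (edgeR adjusted p = 0.999), with 3.83, 3.18, 1.67 and 2.41 CPM in control and 1.30 and 0.88 in mutant, below all 4 controls. Col8a1 was -0.68 ± 0.27, with 5.09 and 4.89 CPM in mutant, also below all 4 controls. Both genes are named for their small p, and the share of all genes with such a position was not counted. Col13a1 was -2.42 ± 1.42, and -0.61 without control ZT6 1. After SD, 24 of 43 were positive, with a median of 0.06 against -0.02. Col6a5 was 0.69 ± 0.33 (edgeR adjusted p = 0.999), at 5.42, 4.92, 9.87 and 5.68 CPM in control and 11.98, 10.60, 6.58 and 12.60 in mutant, which overlapped. Col25a1 was 0.44 ± 0.23 and Col14a1 0.73 ± 0.41.

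The interaction, which asks whether the SD difference of the mutant departs from that of control, was positive in 27 of 43 collagens, with a median of 0.26 against 0.03 over all genes. Col8a1 was 0.89 ± 0.34 (edgeR adjusted p = 1), Col20a1 1.64 ± 0.64 and Col13a1 3.73 ± 1.77. Col13a1 was 1.92 without control ZT6 1, 2.21 without mutant SD 1 and -0.42 without the 3 libraries that hold pituitary transcripts. By class, medians of the interaction ran from -0.36 for the anchoring fibril gene to 0.89 for the short chain network, with fibrillar chains at 0.06, basement membrane chains at 0.48 and no call in any.

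**Figure D5:**
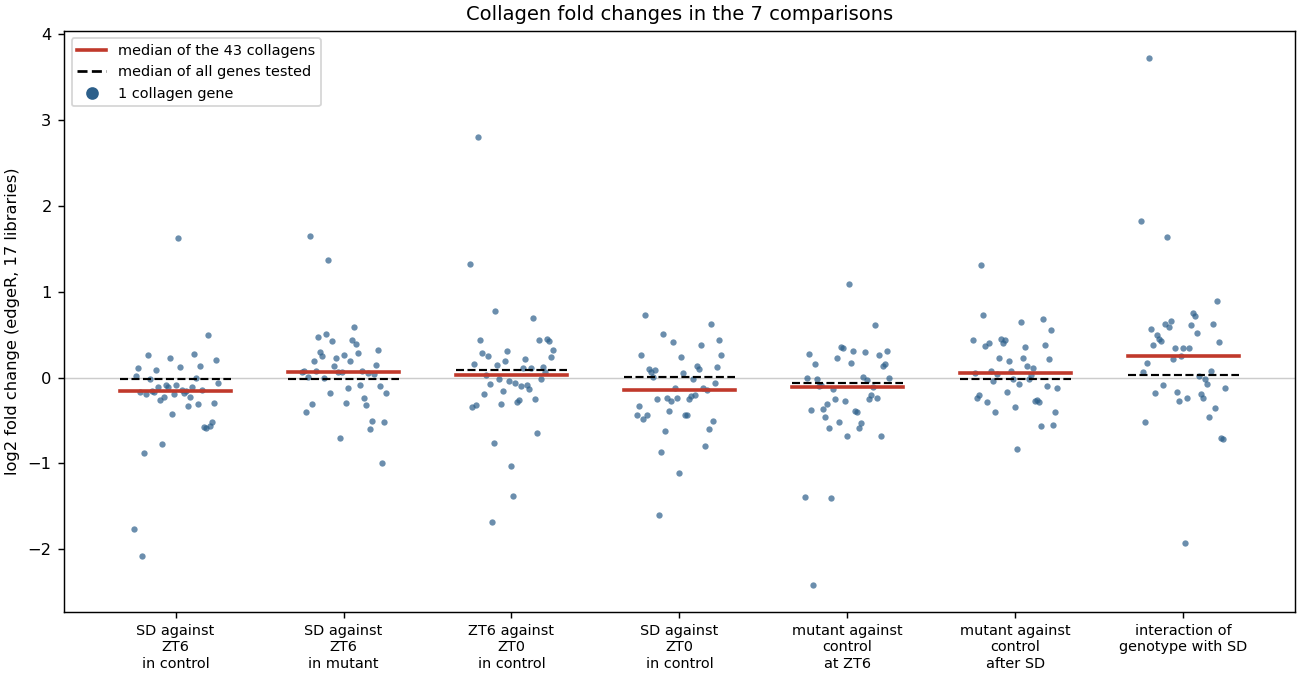
Log2 fold changes of the 43 collagens (edgeR, 17 libraries) in the 7 comparisons, with 1 point per gene, the collagen median as a red line and the median of all genes tested as a dashed line. The collagen median lies between -0.16 and 0.26, and the farthest point is Col13a1 at 3.73 in the interaction.

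No gene of the 6 pathway lists was called in these comparisons either. The receptor gene Gp6 was left out of the fit as too low. Medians for SD against ZT6 ran from -0.35 for collagen receptors to 0.09 for chain modification and folding in control. In mutant they ran from -0.22 for collagenases and inhibitors to 0.31 for basement membrane partners, where 12 of 12 genes were positive. Those 12 were all negative between genotypes at ZT6, with a median of -0.32, and all positive in the interaction, with a median of 0.73. The 3 values share the mutant ZT6 libraries, of which there are 2. Over all genes tested the 3 medians were -0.01, -0.06 and 0.03, and the share of genes with each sign was not counted. For SD against ZT6 in control, which enters the interaction, 11 of the 12 were negative, with a median of -0.33. Between genotypes after SD, 10 of the 12 were positive, with a median of 0.28.

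The index numbers in the library titles form 3 runs, 1 to 4, 5 to 18 and 43 to 46, and the labels do not say what the runs are. Among the 17, the 4 libraries numbered 43 to 46 were all above the other 13 for 3 of 43 members, Col6a1 (from 25.69 CPM against at most 25.68), Col6a2 and Col9a2, and for 5.31% of 16744 genes with a mean of at least 1 CPM. Without TMM factors the 3 were Col6a2, Col9a2 and Col9a3, against 4.91% of genes. The beaded filament sum was 82.78 to 117.5 CPM in the 4 and 34.63 to 73.32 in the 13. All collagens summed to 858.0 to 953.7 CPM in those 4 libraries and to 477.5 to 962.3 in the others. Col13a1 had 0.43 to 1.31 CPM in the run 5 to 18. It had 1.58 to 25.95 CPM in the run 1 to 4 and 2.63 to 4.82 in the run 43 to 46. The groups compared above hold the runs in unlike numbers, so for Col13a1 group and run cannot be fully told apart. Within the runs, the median difference of the collagens for SD against ZT6 in control was -0.07, -0.28 and -0.26, and for mutant against control after SD it was 0.20, 0.13 and 0.15, each from 2 to 3 libraries on the log2 scale with 0.5 CPM added. In the mutant, SD against ZT6 gave 0.15 and 0.16 within the 2 runs that hold both states, and genotype at ZT6 gave -0.14 and -0.05. The direction of these medians was that of the pooled values, which come from the same libraries, so they are not independent. The control ZT0 libraries are numbered 14 to 16, all in the run 5 to 18. Control ZT6 and control SD libraries come from all 3 runs. In ZT6 and SD against ZT0, state and run therefore cannot be fully told apart.

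Promoters were looked at because 19 members stood high together. RefSeq (GRCm38.p6) gave a promoter for 34 of the 43. Col1a1, Col5a2 and Col12a1, which are among the 19, were without one. The motif counts cover all 34 promoters, of high, low and overlapping members alike. Whether a motif is more frequent among the high members was not tested. In the 250 bases before the start, on either strand, CCAAT was found in 11 of 34 collagen promoters (32.4%) and in 33.8% of 32817 promoters of that length, GGGCGG in 19 (55.9%) against 32.7%, and TATAAA in 5 (14.7%) against 12.4%. The 2 windows printed are those of Col3a1 and Col25a1, which had the highest and lowest ratios, with motif letters in capitals. A match describes these letters and no more. The window of Col25a1 ends at the start that RefSeq gives, which lies inside the longer GENCODE gene whose bounds are given above.

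Col3a1, chr1:45311288-45311537, plus strand, with TATAAA: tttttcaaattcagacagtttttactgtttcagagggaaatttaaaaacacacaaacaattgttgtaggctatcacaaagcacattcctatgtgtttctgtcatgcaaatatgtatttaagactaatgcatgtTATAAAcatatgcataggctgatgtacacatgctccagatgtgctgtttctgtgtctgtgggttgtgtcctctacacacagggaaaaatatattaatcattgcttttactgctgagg
Col25a1, chr3:130180595-130180844, plus strand, with CCAAT and GGGCGG on both strands: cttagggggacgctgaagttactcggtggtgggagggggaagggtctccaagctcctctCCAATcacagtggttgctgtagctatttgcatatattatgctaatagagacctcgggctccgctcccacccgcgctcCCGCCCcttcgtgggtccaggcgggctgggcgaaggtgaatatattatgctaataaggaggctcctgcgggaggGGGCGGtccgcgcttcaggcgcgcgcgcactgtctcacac

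The library with few reads, mutant ZT6 2, held 11 collagen counts, of which 3 were Col16a1 and 2 each Col1a1, Col3a1 and Col4a2. A count of 0 there allows up to 130.1 CPM on the TMM scale, so single collagens below that level were not detectable. Together its collagens summed to 476.9 CPM, against 26200 to 56930 in the 4 collagen-rich libraries and 477.5 to 962.3 in the 17. That sum rests on 11 counts and a TMM factor of 3.1391.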

How the data were processed

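The 22 poly(A) libraries were labelled as RNA of the hypothalamus. Per the labels, reads were trimmed with Trimmomatic 0.38, kallisto 0.44.0 with an index of Ensembl 79 transcripts gave their abundance, tximport summed it by gene, and the authors deposited expected counts per gene (estimated counts, rounded, not normalised). From these, 5 repeated gene lines were dropped, and no value column was left unused. TMM factors were computed over 22 libraries for levels in CPM. Among 17 libraries, edgeR 4.0.16 (R 4.3.3, filterByExpr with a minimum of 10 counts, quasi-likelihood F test, two-sided, Benjamini-Hochberg) tested 7 comparisons in 1 fit of 5 groups. DESeq2 1.42.0 was an alternative. Each SE is the size of the fold change on the log2 scale divided by the root of its F. The script was tested on simulated data. Gene models are GENCODE M21 (GRCm38), the assembly of the Ensembl 79 index.

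The members, classes, pathway lists, cell type markers and the 3 runs of index numbers were chosen with earlier results of these data known. Every member is accounted for, and in each comparison with fewer than 3 calls the 3 smallest p-values are named. Promoter windows were chosen by ratio after values were seen. Summed marker levels not given above, in the 4 libraries against the 17, were 24.15 to 50.99 against 2979 to 8033 CPM for myelinating oligodendrocytes, 262.4 to 1249 against 231.7 to 431.8 for oligodendrocyte precursors (1 of 6 genes above, Pdgfra, which the fibroblast list also holds, and 4 below), 101.3 to 946.9 against 3147 to 4426 for astrocytes and 151.6 to 468.7 against 184.0 to 383.1 for microglia (1 of 8 above, Tmem119, and 4 below, with P2ry12 at 0). They were 0 to 4.47 against 28.0 to 54.06 for choroid plexus, 0.30 to 11.85 against 23.4 to 71.28 for ependyma, 174.7 to 879.9 against 49.7 to 105.9 for tanycytes (1 of 6 above, Adm, at 171.6 to 863.6, and the other 5 below), 1.13 to 5.90 against 3.25 to 18.11 for skin epithelium, 10.89 to 204.8 against 4.07 to 22.79 for skeletal muscle and 0.23 to 2.26 against 257.2 to 1806 for blood.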

Additional observations from a re-analysis of the deposited data

Results flagged for a closer look

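In groups of 4 libraries, 16 of 129 sets of values (43 members in 3 groups, 12.4%) had 1 library whose gap to the nearest other exceeded Dixon's 95% limit as a share of the range. Chance alone gives about 1 in 20 for normally distributed values, and collagens of 1 library are not independent. The values were CPM without a log, some from few counts, so that rate need not hold here. Values are TMM-scaled CPM, with the range of the other 3 libraries after each.

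Control SD 4 stood high for Col1a1 (36.03, others 2.64 to 8.12), Col3a1 (29.56, others 2.64 to 5.98) and Col15a1 (10.48, others 8.27 to 8.55), and control SD 3 for Col6a5 (9.87, others 4.92 to 5.68). Control ZT6 1 stood high for Col13a1 (25.95, others 0.89 to 4.82) and Col2a1 (12.4, others 6.37 to 7.23). Control ZT6 4 stood high for Col5a1 (15.93, others 5.18 to 5.23) and Col22a1 (6.293, others 1.42 to 1.73). Control ZT6 3 stood high for Col19a1 (11.81, others 3.14 to 4.46) and low for Col9a3 (11.92, others 20.8 to 22.1).

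Mutant SD 1 stood high for Col4a1 (45.06, others 4.74 to 10.49), Col4a5 (16.59, others 9.47 to 10.6) and Col17a1 (1.099, others 0.13 to 0.22). Mutant SD 4 stood high for Col7a1 (24.13, others 5.19 to 7.50) and Col9a3 (28.6, others 12.8 to 14.4) and low for Col9a1 (0.1077, others 0.81 to 0.92).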

How the results depend on the processing

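No paired analysis was possible because the libraries carry no animal or pair label, and replicate numbers follow accession order. Over 126 alternatives to the 7 comparisons (other scaling, filters, covariates, a 2-fold limit, DESeq2, groups compared alone, libraries left out), 125 called 0 collagens, as did the fit itself. The exception was SD against ZT6 in mutant over all 22 libraries, with 5 collagens lower after SD (Col12a1, Col28a1, Col5a1, Col5a2 and Col6a3); by construction its ZT6 group then holds mutant ZT6 3 and mutant ZT6 2. Over those 22 libraries, Col4a5 in that comparison was -2.39, Col8a1 between genotypes at ZT6 was 2.20 and Col8a1 in the interaction was -1.95, against 0.59, -0.68 and 0.89. Without control ZT0 2, Col1a1 was 0.143 for SD and 0.072 for ZT6 against ZT0, the upper ends of ranges that reached -2.77 and -2.21 as each library was left out, against -1.60 and -1.69 with all. Without the 3 libraries with pituitary transcripts, an alternative added after the data were seen like that of the 3 runs of index numbers, Col13a1 in the interaction was -0.42, against 3.73. Without TMM factors the number of members above the 17 was 18 in place of 19. Depth limits members under about 1 CPM, where a library holds few counts.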
